A study of Macaca mulatta with 39 samples.

Results

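TC38 is a culture of fibroblasts grown out of a teratoma of the female rhesus macaque embryonic stem cell (ESC) line 3806. It was set against TA38 and TB38, the cultures from the other 2 teratomas of that line, as read on expression arrays. Each culture has 3 arrays, lettered a to c, so 9 of the study's 39 arrays carry the comparison. For each of 14132 genes, 1 probe set was used, the brightest on average over all arrays. The genes described are those for which TC38 lay beyond both sister cultures: 23 were higher and 61 were lower, 84 in all.

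The study compared rhesus ESCs with differentiated cells of the same pedigree. Its other sources are ESC lines 3806 and 3106, 5 teratoma cultures of the male line 3106 (TA31 to TE31) and skin fibroblasts of parent animals (M032, M088, M106p1), with 3 arrays each. TA38, TB38 and TC38 share the ESC line, the cell type label (teratoma fibroblasts) and the RNA and labelling protocol, and the labels give no genotype change or drug treatment for any of them. Each culture stands for 1 tumour, which grew in an immune-deficient mouse, and whether mouse cells remained in the cultures was not tested. The labels call the arrays of a culture biological triplicates without saying whether they were separate dishes, so p-values over these 9 arrays measure the spread between arrays of 1 culture and not the spread between tumours.

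A teratoma holds tissues of all germ layers side by side, and an explant can carry over cells of any of them. Skeletal muscle cells arise from precursors under the myogenic regulators MYOD1, MYF5 and MYOG, and their contractile apparatus is built of myosins, actins and calcium-binding troponins. Embryonic muscle uses its own isoforms, among them the embryonic and perinatal myosin heavy chains MYH3 and MYH8, and ACTC1, the cardiac alpha actin that developing skeletal muscle also makes. Fibroblasts of different origin differ in patterning transcription factors, in secreted WNT regulators and in matrix genes, and some of these differences last in culture.

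Matrix markers of fibroblasts read high in TC38. The matrix genes COL1A1, COL1A2 and LUM had mean log2 signals of 13.08, 13.78 and 12.58 in TC38 and differed from both sisters by at most 0.19. Other members of the 17 measured fibroblast identity genes did change, with differences from the mean of the sisters between -0.99 and 1.21. Of the 17 genes 3 lay above all sister arrays and 3 below, beside 10.8% and 7.46% of all genes. POU5F1, the pluripotency factor, stood at 4.83 in TC38, 4.68 in TA38 and 4.90 in TB38. Over all genes, the correlation between pairs of TC38 arrays was 0.994 to 0.9966. Correlations of TC38 arrays with TA38 arrays were 0.97 to 0.9815, and with TB38 arrays 0.9792 to 0.989. These are descriptions across genes measured with the same probes, and genes are not independent replicates. The actin 3′ minus 5′ probe gap, a sign of RNA quality, was 0.05 to 0.55 over the 9 arrays, and the GAPDH gap was 0.5 to 0.74.

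The labels of 3 arrays from other sources did not match their profiles. C3806c, which carries an ESC label, correlated with the TC38 arrays at 0.9954 to 0.9977, had 1 gene 2-fold or more from the TC38 mean, and lay on TC38's side of both sisters for 84 of the 84 genes. The arrays labelled M106p1f and TB31c also stood apart from the other arrays of their sources. No array was relabelled, none of these 3 enters the comparison, and the text says where a value of their sources is given without them.

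Against both sisters at once, 23 genes were higher in TC38 (0.163% of those tested) and 61 were lower (0.432%). A gene counted here when its Benjamini-Hochberg adjusted p in limma was under 0.05 against TA38 and against TB38 and both differences reached 2-fold in 1 direction. Where a pair of log2 differences is given, the first is from TA38 and the second from TB38. All 84 genes (0.594%) had no overlap between the TC38 arrays and the 6 sister arrays. The rule for naming called genes required this, so its mention for single genes below is a description and no added support. Non-overlap alone was common: 1524 genes (10.8%) lay above all sister arrays and 1054 (7.46%) below. Against TA38 alone, 136 genes were higher (0.962%) and 348 were lower (2.46%). Against TB38 alone, 88 were higher (0.623%) and 126 were lower (0.892%), and with each array centred on its median these became 66 and 153. Both comparisons share the TC38 arrays. By the same rule 200 genes (1.42%) were higher and 67 (0.474%) lower in TA38 than in both others, and 36 (0.255%) were higher and 35 (0.248%) lower in TB38. Between the sisters, 305 genes were higher in TA38 (2.16%) and 149 in TB38 (1.05%). TA38 was the more distant of both sisters from TC38: 215 genes differed 2-fold between the means of TC38 and TB38, and 485 between TC38 and TA38. With whole cultures as the unit, the spread taken from the cultures of line 3106 and of skin, no gene was called in either direction, and 180 genes, 14 of the 84 among them, had an unadjusted limma p under 0.05 against both sisters.

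**Figure D1:**
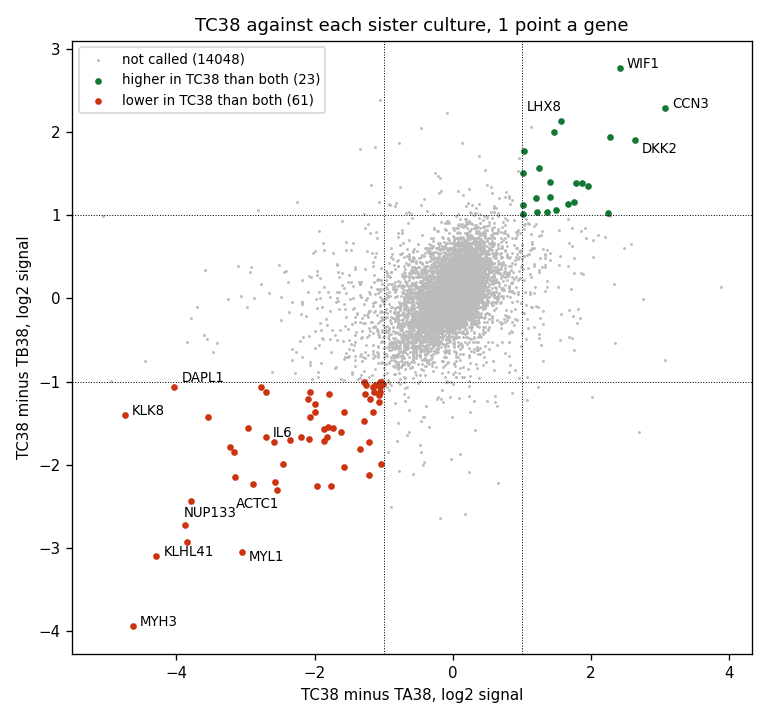
Difference of TC38 from TA38 (x axis) and from TB38 (y axis) in log2 signal, 1 point for each of 14132 genes, with dotted lines at the 2-fold limit. The 61 lower genes reach further from 0 than the 23 higher ones, with MYH3 farthest down at -4.63 and -3.94, and both axes share the TC38 arrays.

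The largest fall, that of MYH3, was in a skeletal muscle gene. Of 33 genes listed for skeletal muscle, 26 were measured: 7 fell in TC38 against both sisters and none rose (0 higher), beside 0.432% and 0.163% of all genes. The 7 are the myosin heavy chains MYH3 and MYH8, the myosin light chain MYL1, the actin ACTC1 and the troponins TNNC1, TNNC2 and TNNI1. The median difference from the mean of the sisters was -0.34 over the 26 genes and 0.05 over all genes. In bulk RNA, fewer muscle cells, less muscle RNA in each cell and less RNA of these genes in other cells cannot be told apart. TNNC1 read 10.54 in M088 skin fibroblasts and TNNC2 8.64 in ESC line 3106, where MYL1 read 3.92 and 3.85. MYH3, MYH8, MYL1, TNNC2 and TNNI1 had their highest means in TD31 and TB31.

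MYH3, the embryonic myosin heavy chain, had log2 signals of 5.61, 5.55 and 5.62 in the TC38 arrays. It stood at 10.33, 10.22 and 10.12 in TA38 and at 9.75, 9.68 and 9.17 in TB38. The lowest sister array was thus far above the highest TC38 array, and the fall was 24.8-fold from TA38 and 15.4-fold from TB38 (log2 differences -4.63 and -3.94, standard error 0.13, limma adjusted p 6.02e-11 and 1.78e-09). MYH8, the perinatal chain, fell as well, from 6.06 to 6.37 in TA38 and 5.13 to 5.70 in TB38 to 3.53 to 3.82 in TC38. MYH2, a chain of adult fast fibres named here after its values were seen, fell (log2 differences -1.74 and -1.56). Unlike MYH3, its probe set read highest in skin fibroblasts (11 in M032 and 11.74 in M088, where MYH3 read 4.83 and 7.85) and low in TD31 (7.43, where MYH3 read 11.80). Myosin heavy chains are near-identical in sequence, and how far their probes respond to each other's RNA was not tested.

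ACTC1, the marker given with the comparison, measured 8.68, 8.68 and 8.53 in TC38. The TA38 arrays gave 11.21, 11.17 and 11.12, and the TB38 arrays 10.78, 11.10 and 10.91. All 6 sister arrays were above all 3 TC38 arrays, and the sisters themselves lay within 0.24 of each other on average. ACTC1 fell 5.81-fold from TA38 and 4.92-fold from TB38 (log2 differences -2.54 and -2.30, standard error 0.09, adjusted p 4.29e-10 and 6.69e-09). MYL1, an alkali light chain of fast skeletal myosin, fell by 3.05 on the log2 scale against each sister, to 4.38 to 4.57 in the TC38 arrays. The calcium-binding troponins TNNC1 and TNNC2 fell as well, at -1.80 and -1.55 for TNNC1 and -1.62 and -1.61 for TNNC2. TNNI1, the inhibitory troponin of slow fibres, fell (-1.2 and -1.21). Its other probe set read 5.49 in each of the cultures, with differences of 0 and 0. With the mean of all probe sets of a gene, 6 skeletal muscle genes were lower.

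The remaining 19 muscle genes did not reach the limit. The acetylcholine receptor subunit CHRNA1 came closest, with differences of -0.99 and -0.84, and passed when the limit was 1.5-fold (241 lower genes, 1.71% of all). Below every sister array stood 11 of the 26 genes, against 7.46% of all genes. The regulator MYOD1 was among them, at 5.43 to 5.47 in TC38 and 5.55 to 6.06 in the sisters, differences of -0.46 and -0.27. MYF5 lay between 3.68 and 4.21 and MYF6 between 4.24 and 4.99 over the 9 arrays, under the lower quartile of all probe sets (5.12 to 5.30). Genes of mature muscle, the giant sarcomere protein TTN and the creatine kinase CKM, stood at 5.95 and 5.84 in TC38, at 5.77 and 5.72 in TA38 and at 5.84 and 5.80 in TB38. The mean log2 signal of the 26 genes was 6.19 to 6.2 in the TC38 arrays, 6.97 to 7.03 in TA38 and 6.85 to 6.99 in TB38. MYOG, ACTA1, DES and NEB, further defining genes of muscle, were not analysed here.

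**Figure D2:**
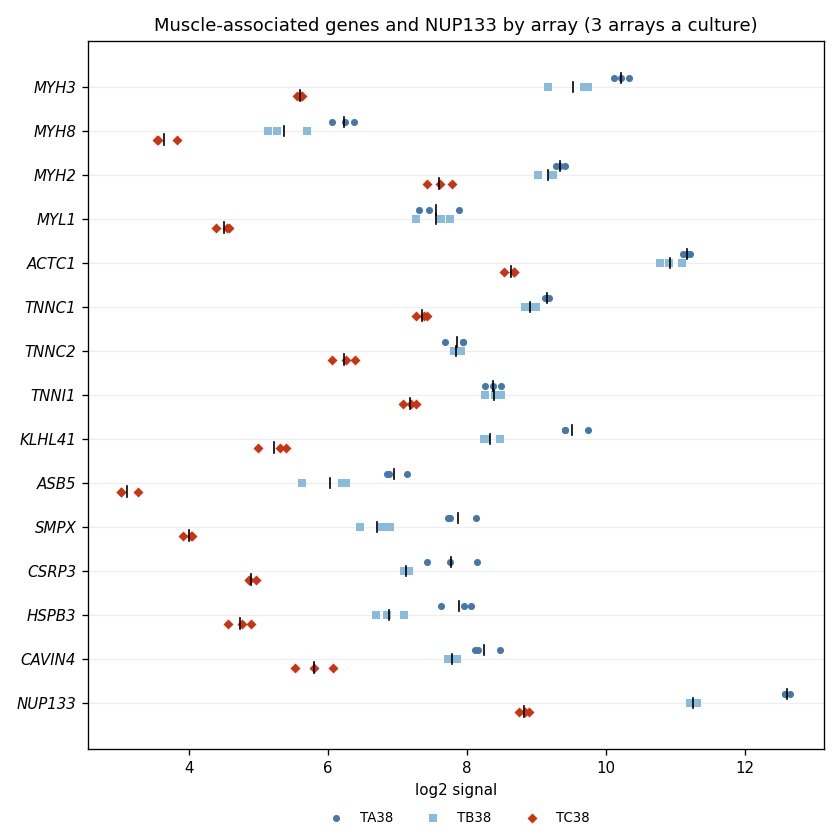
Log2 signal of 15 genes in each array of TA38 (circles), TB38 (squares) and TC38 (diamonds), with a black tick at the mean of each 3 arrays. TC38 lies to the left of both sisters for each gene shown, and TA38 lies to the right of TB38 for most of them.

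Several of the other named falls are of genes known from muscle that were on no list. KLHL41, a kelch protein of sarcomere assembly, measured 5.30, 4.99 and 5.39 in TC38, 9.74, 9.41 and 9.41 in TA38 and 8.48, 8.24 and 8.27 in TB38. Its arrays did not overlap, with TA38 highest, and it fell 19.6-fold and 8.57-fold (adjusted p 6.43e-11 and 7.01e-09). Its next brightest probe set had differences of -1.16 and -1.17. SMPX, the small muscle protein of the X chromosome, fell (log2 differences -3.88 and -2.72), and ASB5, a SOCS box protein, fell (log2 differences -3.85 and -2.93). HSPB3, a small heat-shock protein of muscle, fell (log2 differences -3.15 and -2.15), and CSRP3, the muscle LIM protein of the Z-disc, fell too (-2.89 and -2.23). CAVIN4, a coat protein of muscle caveolae, fell (log2 differences -2.46 and -1.99). All of these 6 were higher in TA38 than in TB38 on average, as were MYH3 and MYH8 of the list, by 0.69 and 0.86. MYL1, ACTC1 and the 3 troponins differed between the sisters by at most 0.25 in mean log2 signal. The levels of the 6 did not follow MYH3 in every source. In M032, where MYH3 read 4.83, KLHL41 read 10.64, HSPB3 9.31 and SMPX 8.13. In TE31, where MYH3 read 4.51, KLHL41 read 9.03 and HSPB3 8.16. ASB5 read 3.22 in M032 and 3.17 in TE31, and CSRP3 4.54 and 4.88. CSRP3's other probe set had differences of -0.10 and -0.05 from the sisters.

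The probe set annotated to NUP133, a scaffold protein of the nuclear pore found in all nucleated cells, also fell among the strongest. It read 8.84, 8.89 and 8.75 in TC38, 12.58, 12.59 and 12.66 in TA38 and 11.31, 11.26 and 11.21 in TB38. Arrays of each culture stood close together and the cultures far apart, so the falls of 13.8-fold and 5.39-fold had the lowest adjusted p of the called genes (8.02e-13 and 4.32e-10). The gene has this 1 probe set, and whether it measures NUP133 RNA was not tested. In the RefSeq gene order of the rhesus genome NUP133 lies between ABCB10 and ACTA1. ACTA1, the skeletal muscle alpha actin, was not analysed here. Across sources the NUP133 probe set did not follow MYH3 throughout. It read 12.57 in TD31, where MYH3 read 11.80, but 12.21 in TA31 and 8.41 in TC31, where MYH3 read 4.44 and 7.25.

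Over all 13 sources, the level of ACTC1 in TC38 was among the lower ones. Teratoma cultures TB31 and TD31 had the highest means, 12.66 without the array labelled TB31c (10.99 with it) and 12.52. ESC lines 3106 and 3806 followed at 11.68 and 11.59 without the array labelled C3806c (10.65 with it), and then TA38 at 11.17, TB38 at 10.93 and TA31 at 10.25. TC31 at 8.72 and TC38 at 8.63 came next, with overlapping arrays (8.58 to 8.82 and 8.53 to 8.68). Skin fibroblasts and TE31 were lowest, between 7.42 and 8.07 without the array labelled M106p1f; with it the mean of M106p1 was 9.55, above TC38. Teratoma cultures of both lines therefore spanned ACTC1 from 7.61 in TE31 to 12.66 in TB31, and TC38 ranked 7 of 8. These sources share the arrays' common normalization, and their levels are given as a description.

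**Figure D3:**
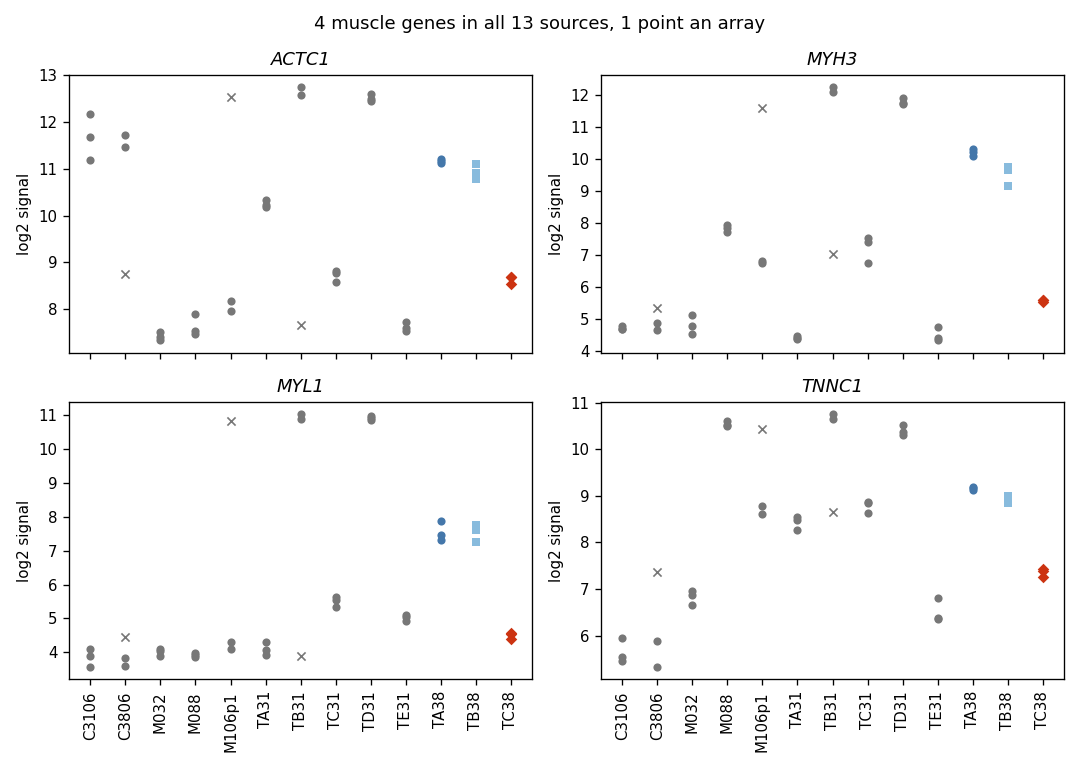
Log2 signal of ACTC1, MYH3, MYL1 and TNNC1 in all 39 arrays by source, with TA38, TB38 and TC38 in colour and crosses for the arrays labelled C3806c, M106p1f and TB31c. TD31 and the 2 other TB31 arrays exceed TA38 and TB38 in each panel, ESC arrays are high in ACTC1 alone of the 4 genes, and TC38 lies with the lower sources for ACTC1, MYH3 and MYL1.

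Calls in the lists of other cell types stand beside 0.163% of all genes called higher and 0.432% called lower. At these shares 0 calls in such a list is no result about its members. Among 20 measured cardiac genes, the single called gene was ACTC1, which both lists hold, and the mean log2 signal of that list was 6.48 to 6.55 in TC38, 6.81 to 6.90 in TA38 and 6.58 to 6.67 in TB38. None of 20 smooth muscle and myofibroblast genes was called (0 higher, 0 lower). Their largest difference was that of PDLIM3, a Z-line protein, at -1.91 from TA38 and -0.38 from TB38. MYOCD, the smooth muscle coactivator, was at -1.86 and 0.14, and LDB3 at -0.78 and -0.26. For neural genes 0 of 11 were called, with ZIC2 at 2.48 and 0.60, PAX6 at -2.18 and -0.70, and DCX at -2.93 and 0.31. For neural crest genes it was 0 of 15 (S100B 0.17 and -2.59, TWIST1 -0.07 and 0.93, NGFR 0.06 and 0.41). For ZIC2, DCX, MYOCD and S100B, 1 sister stood apart and TC38 was within 0.60 of the other.

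Skeletal tissue lists gave 1 call. MSX2, a homeobox factor of skull and limb mesenchyme, rose among 12 bone genes (1 higher, beside 0.163% of all genes). SPP1 and TNFRSF11B of that list, named after their values were seen, passed the 1.5-fold limit downwards, at -2.33 and -0.74 and at -1.27 and -0.72. None was called among 16 cartilage genes (HAPLN1 -1.12 and 1.82, COL9A3 0.90 and 0.41, COL11A1 0.65 and 0.02) or 8 tendon genes. In the tendon list TNMD, a tendon membrane protein, had differences of 1.21 and 0.89, FMOD 0.93 and 0.76, and EGR2 -0.68 and -0.46. Adipocyte genes (9), endothelial genes (14), endoderm genes (12), leukocyte genes (9) and pluripotency genes (16) held 0 calls each. Their largest differences were those of CFD (-1.04 and 0.22), TEK (-2 and 0.57), FOXA1 (-0.64 and -0.05), CD68 (-0.30 and -0.46) and SOX2 (-0.42 and -1.96). DNMT3B, a DNA methyltransferase on the pluripotency list, had differences of 0.72 and 0.92. Of 14 mesothelial genes none was called, and ALDH1A2, the enzyme that makes retinoic acid, lay just outside: it measured 12.30 to 12.35 in TA38, 8.27 to 8.50 in TB38 and 7.34 to 7.40 in TC38, differences of -4.95 and -0.99. WT1 of the same list had -0.56 and -0.56. Among 22 epithelial genes CLDN1, a tight junction protein, fell (log2 differences -1.58 and -1.36), beside 0.432% of all genes lower. Its other probe set had differences of -0.11 and -0.29, and with the mean of its probe sets CLDN1 was not called (-0.83 from the mean of the sisters).

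Cytokine genes were also among the falls. Of 32 measured cytokine and chemokine genes 3 fell and none rose (0 higher), beside 0.432% and 0.163% of all genes. IL6, a cytokine that fibroblasts secrete, measured 9.50, 9.47 and 9.62 in TC38, 12.29, 12.19 and 12.24 in TA38 and 11.14, 11.29 and 11.12 in TB38. The 3 cultures formed separate tiers, and IL6 fell 6.55-fold and 3.15-fold (adjusted p 4.28e-11 and 1.59e-08). A further probe set of IL6 had differences of -3.20 and -1.55. CCL2, the monocyte chemoattractant, fell (log2 differences -2.06 and -1.43) in the same order of cultures. CXCL8, the neutrophil chemokine, read 6.18, 5.86 and 6.42 in TC38, 10.41, 9.16 and 9.54 in TA38 and 7.47, 7.66 and 7.60 in TB38, so that TA38 was both highest and most spread. The list's median difference was -0.09, that of all genes 0.05. Below all sister arrays stood 9 of the 32, beside 7.46% of all genes, and 1 stood above. CCL20 was -3.56 from TA38 but -0.49 from TB38, and VCAM1, an adhesion molecule, was 0.13 and 1.87. These last genes were named after their values were seen.

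The other genes with the strongest falls had varied roles. NEGR1, a membrane-anchored adhesion protein of neurons, fell (log2 differences -2.57 and -2.21), and its TC38 arrays were the lowest of the 8 teratoma cultures on average. SLC2A5, a fructose transporter, fell (log2 differences -3.22 and -1.79), and NDUFA4L2, a mitochondrial protein made under low oxygen, fell as well (-3.16 and -1.84). GATM, the first enzyme of creatine synthesis, fell (log2 differences -1.76 and -2.26), and ELMOD1, a regulator of small GTPases, fell too (-1.97 and -2.26). CRYAB, a small heat-shock protein abundant in muscle and lens, read 10.22, 10.25 and 9.93 in TC38 against 11.79 to 12.13 in TA38 and 11.66 to 11.74 in TB38. It was the single called gene of 17 stress genes, beside 0.432% of all genes lower, and its arrays did not overlap. Its other probe set had differences of -0.01 and -0.06, and with the mean of its probe sets CRYAB was not called (-0.87 from the mean of the sisters).

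A further 37 lower genes fall outside the naming rule. They include, named after their values were seen, the tissue factor pathway inhibitor TFPI2, the kinase inhibitor CAMK2N1, the plasminogen activator inhibitor SERPINB2, the serine protease KLK8, the receptor phosphatases PTPRB and PTPRR, and the cytokine IL18. KLK8 differed most between the sisters, at 10.61 to 10.80 in TA38 and 7.23 to 7.61 in TB38, with TC38 at 5.39 to 6.32. DAPL1 was similar, at 9.27 to 9.44, 6.22 to 6.61 and 5.19 to 5.41. For 45 of the 61 lower genes the TB38 mean was the nearer sister to TC38. Over the 61 genes the smaller of both log2 differences had a median of -1.40.

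The 23 higher genes changed less, with a median smaller difference of 1.22, and held 3 genes of the WNT list. WNT proteins are lipid-linked ligands that act through Frizzled receptors, and their action is limited by secreted antagonists and raised by R-spondins. Of 41 measured WNT genes 3 rose and none fell (0 lower), beside 0.163% and 0.432% of all genes, and the median difference over the list was 0.08. WIF1, a secreted WNT-binding inhibitor, measured 5.67, 5.80 and 5.74 in TC38, 3.03, 3.72 and 3.22 in TA38 and 2.88, 3.20 and 2.84 in TB38. No array overlapped, and WIF1 rose 5.34-fold and 6.79-fold (log2 differences 2.42 and 2.76, standard error 0.15, limma adjusted p 6.61e-08 and 7.87e-08). Its sister arrays lay under the lower quartile of all probe sets (5.12 to 5.30), and its TC38 arrays lay above it. With genes left out whose culture means were all under 6, WIF1 dropped out and 2 WNT genes were higher.

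DKK2, a secreted modulator of the LRP coreceptors, measured 9.35, 8.93 and 9.15 in TC38, 6.51, 6.36 and 6.64 in TA38 and 7.44, 7.29 and 6.99 in TB38. It rose 6.23-fold and 3.74-fold, again without overlap. RSPO3, an R-spondin that strengthens WNT signals, rose close to the limit, by 1.01 and 1.5 on the log2 scale, and was not called without TA38a, TA38c or TC38a (1.22 to 1.25 from the mean of the sisters). AXIN2, a feedback target of WNT signalling, had differences of 1.54 and 0.82 and passed when the limit was 1.5-fold (117 higher genes, 0.828% of all). At that limit 4 WNT genes were higher and 1 was lower, beside 1.71% of all genes lower. Of the WNT list 9 genes lay above all sister arrays and 4 below, beside 10.8% and 7.46% of all genes. No ligand or Frizzled receptor of the list passed the 2-fold limit, and among the ligands WNT5A was at -1.94 and -0.56 and WNT2 was at -0.29 and 1.01. SFRP1, another antagonist, was at -1.09 and -0.57. AXIN2, WNT5A, WNT2 and SFRP1 were named after their values were seen. SOSTDC1 and APCDD1, which inhibit WNT signalling too, were on no list. SOSTDC1 rose by 1.46 and 2, with TC38 arrays at 6.17 to 6.31 and sister arrays at 4.23 to 4.88. APCDD1, named after its values were seen, rose by 1.5 and 1.06.

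Patterning transcription factors gave 3 further rises among 56 measured and no fall (0 lower), beside 0.163% and 0.432% of all genes, with a median of 0.18. LHX8, a LIM homeobox factor of the oral mesenchyme and forebrain, measured 7.12, 6.99 and 7.12 in TC38, 5.48, 5.52 and 5.51 in TA38 and 4.73, 5.11 and 5.00 in TB38. All 3 TC38 arrays were above the 6 others, and the rise was 2.97-fold and 4.38-fold (adjusted p 5.72e-08 and 2.03e-08). MSX2 rose 3.44-fold and 2.60-fold, from 7.99 to 8.16 in TA38 and 8.39 to 8.62 in TB38 to 9.79 to 9.89 in TC38. Its 3 other probe sets differed in the same direction, by 1.92 to 3.50 from TA38 and 1.60 to 2.65 from TB38. FOXF2, a forkhead factor of mesenchyme, was at the edge of the rule with a rise of 1.01 against each sister, and was not called (0.97 to 0.99 from the mean of the sisters) without TA38a, TB38c, TC38a or TC38b, or with each array centred on its median (0.98). TC38 had the highest mean of the 8 teratoma cultures for LHX8, MSX2 and FOXF2, but TA31 was close for LHX8 and MSX2. For LHX8 the TA31 mean was 7.07 beside 7.08 in TC38, and TA31 arrays (6.80 to 7.55) spanned those of TC38. For MSX2 the TA31 mean was 9.63 beside 9.84, and 1 TA31 array (9.80) lay within the TC38 range. None of 26 measured HOX genes, which mark position along the trunk and limbs, was called.

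CCN3, a matricellular protein, had the largest rise against TA38 among the 23. It measured 11.21, 10.96 and 11.10 in TC38, 8.17, 7.90 and 7.97 in TA38 and 8.93, 8.82 and 8.68 in TB38, which gave 8.41-fold and 4.85-fold without overlap. Its other probe set had differences of 3.36 and 2.54. MMP13, an interstitial collagenase, rose by 2.28 and 1.94, while MMP1, another collagenase, fell (log2 differences -1.06 and -1). No other of 29 protease and inhibitor genes was called, beside 0.163% of all genes higher and 0.432% lower. MMP1 was not called without TB38a, TB38b, TC38a or TC38b (-0.96 to -1.03 from the mean of the sisters). PENK, the enkephalin precursor, read 8.25 in TC38a but 6.75 and 6.68 in the other TC38 arrays, above sister arrays of 5.64 to 5.96. Its mean difference of 1.40 from each sister rests largely on TC38a (adjusted p 0.00469 against TB38): without that array the difference from the mean of the sisters was 0.89 and PENK was not called, and its other probe set had differences of -0.70 and -0.25. LCN2, an iron-carrier binding lipocalin, read 10.40, 10.53 and 9.51 in TC38 and rose by 1.96 and 1.35, but its 3 dimmer probe sets had differences of -0.08 to -0.17 from TA38 and -0.38 to -0.59 from TB38.

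CD248, endosialin of pericytes and stromal fibroblasts, rose by 1.21 against each sister, from 8.07 to 8.33 over the 6 sister arrays to 9.09 to 9.75 in TC38. It was the single call among 7 pericyte genes and among 17 fibroblast identity genes, beside 0.163% of all genes higher. The 1.5-fold limit was passed upwards by 2 genes of each list, beside 0.828% of all genes. It was passed downwards by 1 fibroblast identity gene, beside 1.71%. LRRC15, a membrane protein of mesenchymal cells, rose by 1.76 and 1.16, while its other probe set had differences of 0.18 and 0.19. GPC3, a glypican that carries heparan sulphate, rose by 1.40 and 1.22, while its next probe set had differences of 0.03 and -0.13. DLK1, an imprinted membrane protein that holds back adipocyte formation, rose by 1.37 and 1.04 and was the single call among 17 imprinted genes. The 1.5-fold limit was passed upwards by 4 of the 17 and downwards by 0. DLK1 was not called without TB38a or TC38a, or with arrays centred on their medians (1.15 to 1.18 from the mean of the sisters). PAQR6, a membrane progesterone receptor, rose by 1.87 and 1.38, while its other probe set had differences of 0.18 and -0.01. TNFSF15, a TNF-family ligand, rose by 1.66 and 1.13 (not called without TC38a, 1.26 from the mean of the sisters). ECRG4, a secreted peptide precursor, rose by 1.25 and 1.57. The remaining genes, C9H10orf90, SLPI, SCUBE3 and PIR, rose by 1.01 to 2.25 from TA38 and 1.02 to 1.77 from TB38 and are named after their values were seen.

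**Figure D4:**
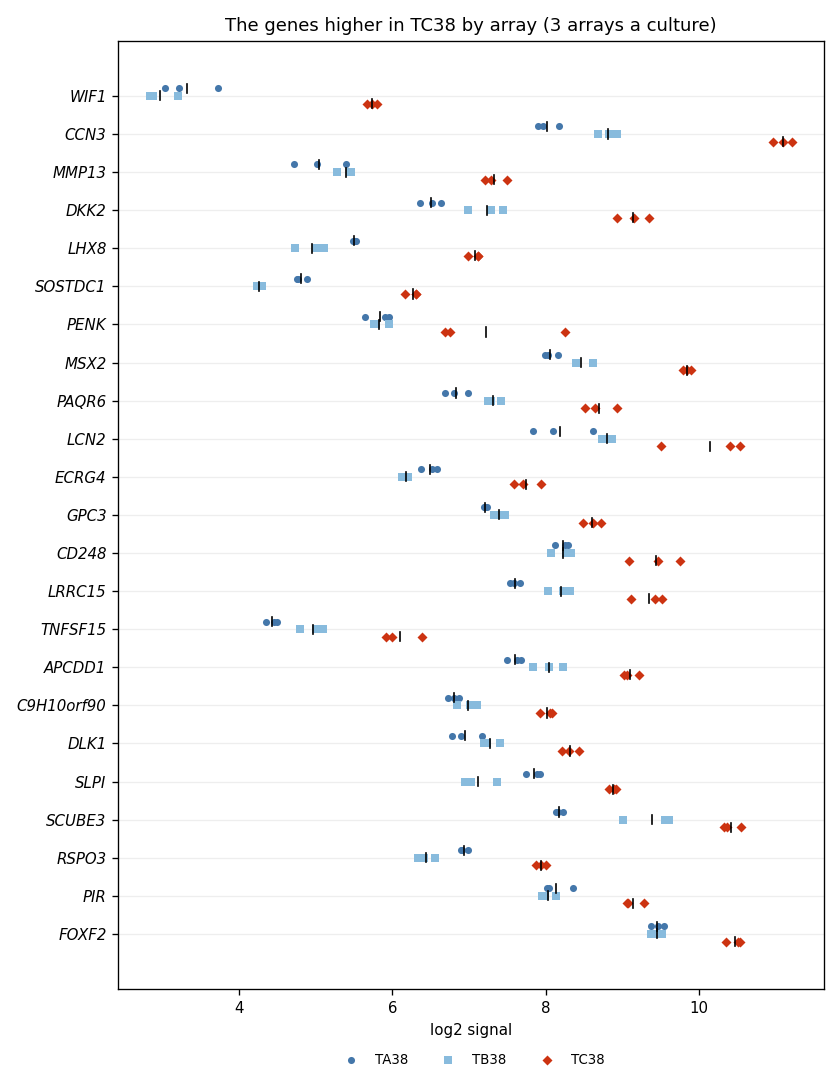
Log2 signal of the 23 higher genes in each array of TA38 (circles), TB38 (squares) and TC38 (diamonds), with a black tick at the mean of each 3 arrays. The TC38 arrays lie to the right of all sister arrays for each gene, and PENK is the gene whose TC38 mean is drawn away by 1 array.

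Many lists held no call at the 2-fold limit, which 0.594% of all genes passed, so that 0 calls in a list of this size is no result about its members. None of 24 collagen chains was called, with a median of 0.26. Above all sister arrays stood 8 of them, beside 10.8% of all genes. The 1.5-fold limit was passed upwards by 3, beside 0.828% of all genes: COL14A1 (1.03 and 0.83), COL5A3 (1.15 and 0.68) and COL13A1 (2.58 and 0.65), named after their values were seen. Of 43 matrix proteoglycans and glycoproteins none was called (median 0.21), 15 lay above all sister arrays and 3 below, and 4 passed the 1.5-fold limit upwards. Of 13 integrins none was called (median -0.22), and 4 lay below all sister arrays, beside 7.46% of all genes, and 0 above. ITGA3, ITGA2 and ITGB8, also named after their values were seen, passed the 1.5-fold limit downwards, which 1.71% of all genes did. No gene was called in the lists for cadherins (13 measured), TGF-beta and BMP signalling (33), FGF, PDGF and EGF signalling (31), the IGF axis (18), NOTCH signalling (16), retinoic acid and nuclear receptors (21) or semaphorins and ephrins (31). The same held for the interferon response (36), cholesterol and fatty acid synthesis (16), glycolysis and hypoxia (21) and SRF and YAP targets (25). Cell cycle genes held no call among 35, with a median of 0.11 against TA38 and 0.58 against TB38. Without a fold limit, 26 of the 35 passed the adjusted p as higher than TB38, beside 16.8% of all genes, and 1 as lower, beside 9.48%. Against TA38, 5 were higher, beside 12.1%, and 4 lower, beside 13.3%. The cell cycle genes of TC38 thus stood mostly above TB38, while their shares against TA38 were close to those of all genes. Of the 35 genes, 15 lay above all arrays of both sisters and 3 below, beside 10.8% and 7.46% of all genes. The labels do not state how dense the cultures were at harvest.

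Set beside the 5 teratoma cultures of line 3106, TC38 was at an extreme for part of the 84 genes. Of the 23 higher genes TC38 had the highest mean of the 8 teratoma cultures for 6 (LHX8, PENK, MSX2, SCUBE3, PIR and FOXF2). For LHX8 the TC38 and TA31 means were 7.08 and 7.07. For PENK they were 7.23 and 7.06, and TC38b and TC38c (6.75 and 6.68) lay below every TA31 array (6.88 to 7.34). TA31 lay on the TC38 side of both 3806 sisters for 21 of them, TD31 for 19, TC31 for 16, TB31 for 15 and TE31 for 9. Of the 61 lower genes TC38 was the lowest of 8 for 24 (23 without the 3 arrays that go against their labels), NEGR1, HSPB3, GATM and CRYAB among them. TA31 was on the TC38 side for 46 of the 61, TC31 for 44, TE31 for 41, TD31 for 40 and TB31 for 35 (36 without the 3 arrays). MYH3 in TC38 was above TA31 and TE31, at 4.44 and 4.51, and below TC31 at 7.25. Both ESC lines were on the low side for 44 of the 61 genes and all skin cultures for 31 (43 and 27 without the 3 arrays). By the number of genes 2-fold or more from the TC38 mean, TB38 (215) and TA31 (240), a culture of the other line, were nearest, before TB31 (394, or 366 without the array labelled TB31c), TC31 (438) and TA38 (485).

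**Figure D5:**
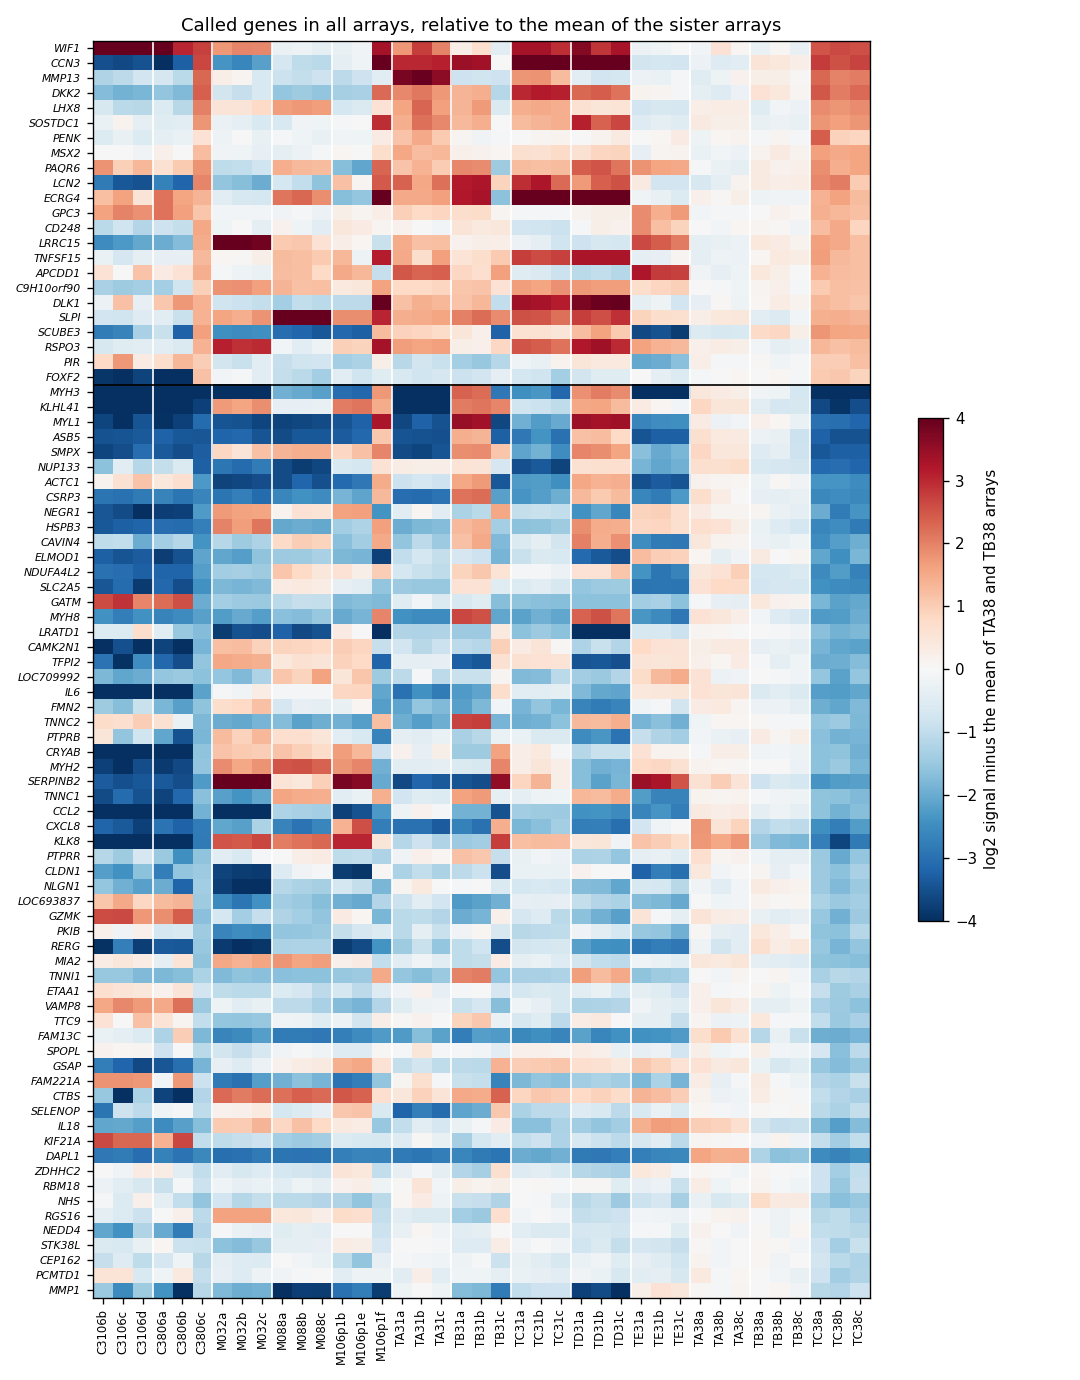
Log2 signal of the 84 genes (rows, higher genes above the black line) in all 39 arrays (columns), minus the mean of the 6 TA38 and TB38 arrays, in colour from -4 (blue) to 4 (red). The TC38 arrays are the last 3 columns, and the array labelled C3806c lies on their side of 0 in all 84 rows, while the teratoma cultures of line 3106 do so in part.

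Where a gene had further probe sets, they did not always follow. Of the 84 genes 42 had another probe set: the brightest other one passed 2-fold in the same direction from both sisters for 13, lay in the same direction under that size for 21, in the opposite direction for 2 and was mixed for 6. No chromosome stood out in its median difference, which ran from -0.036 on chromosome 17, with no called gene, to 0.099 on chromosome 19. Just inside the limit were FOXF2 and PIR (1.005 each as the smaller difference) and MMP1 (-1.001), and just outside were ALKAL2 (0.988), HAS2 (0.964), ALDH1A2 (-0.988) and GHDC (-0.985).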

How the data were processed

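The deposited values are log2 signals of a single-colour rhesus array, 1 per probe set and array, made by the authors with GCOS and RMA, per the submitters' processing notes (versions not given in the sources used here). RMA makes array distributions alike, so changes are relative to the bulk of genes. From these, probe sets with 1 gene symbol (24956 of 52865) were kept and the brightest per gene over all 39 arrays was used, 6375 genes having several. The 9 arrays of TA38, TB38 and TC38 were fitted with limma 3.58.1 (R 4.3.3; lmFit, eBayes with trend, 6 residual degrees of freedom, two-sided tests, Benjamini-Hochberg over 14132 genes); the method was tested on simulated data. No depth applies to arrays, and their number limits the precision. Gene order came from RefSeq. The culture, the 39 gene lists and the alternatives were chosen with earlier results of these data known.

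Named by rule were ACTC1, the 15 largest rises and falls by the smaller difference, up to 6 called genes per list and, for cell type lists with none, up to 3 members as values. The rises, falls and called list genes had to have no overlap with the sister arrays, which held for all 84 genes. Array letters were not shown to pair the cultures, as same-letter deviations correlated at -0.45 to 0.39.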

Additional observations from a re-analysis of the deposited data

Results flagged for a closer look

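Among 75 named genes, the means of the 8 teratoma cultures were searched for a single culture far from the rest, and 3 genes met the limit of Dixon's test, which chance alone meets in about 1 of 20 groups. S100B was highest in TB38 at 7.64, with TC31 next at 5.37. COL11A1 was lowest in TE31 at 11.23, with TA38 next at 12.05. FOXA1 was highest in TC31 at 6.12, with TA38 next at 5.09. In none of these 3 genes was TC38 the culture that stood apart.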

How the results depend on the processing

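With a 1.5-fold limit, 117 genes were higher and 241 lower than both sisters, 396 and 873 against TA38, and 534 and 460 against TB38. With a log2 limit of 2 these counts were 2 and 10, 19 and 81, and 8 and 21, with 3 muscle genes lower. With all 39 arrays in the fit, 9 genes were higher and 30 lower than both sisters, 75 were higher than TA38, 29 were higher and 66 lower than TB38, and 2 muscle genes were lower. With culture means as the unit, 0 were higher and 0 lower than both sisters, 0 higher and 4 lower than TA38, 0 and 0 than TB38, and 0 muscle genes were lower, with the smallest adjusted p of the 84 genes at 0.814. The same counts held when the arrays labelled C3806c, M106p1f and TB31c were left out of those means, an alternative chosen after seeing the data (131 genes with an unadjusted limma p under 0.05 against both sisters, 13 of the 84 among them). The cause was not tested beyond the construction of each setting. With all arrays but those 3, 83 genes were called, all of them among the 84. With the mean of all probe sets, 56 genes were higher than TB38, and 57 of 61 calls against both sisters were among the 84. Leaving out 1 array at a time gave 17 to 26 higher and 49 to 68 lower genes, 131 to 142 and 325 to 375 against TA38, 72 to 118 higher genes against TB38, and 7 muscle genes each time. The lower genes against TB38 stayed within 1.5 times of 126. With the array letter as replicate block, 24 genes were higher and 61 lower. Of 42 named called genes none reversed in any setting, and all 42 lost the call with culture means, 30 with the log2 limit of 2, 25 with all 39 arrays, 8 with the mean of all probe sets (PENK, PAQR6, LCN2, GPC3, LRRC15, GATM, CLDN1 and CRYAB) and 6 without TC38a (PENK, TNFSF15, MMP1, FOXF2, RSPO3 and DLK1).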
